A study of Mus musculus with 8 samples.

Results

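The transition from the 2-cell embryo to the blastocyst was followed in mouse embryos that came from oocytes lacking Tet3. It was measured by comparing the 2 blastocyst libraries of this genotype with its 2 2-cell libraries, which are 4 of the 8 libraries of the study. Genes entered the comparison if they reached 1 FPKM in at least 2 of these 4 libraries, and 12454 of the 23234 listed genes did. FPKM is the number of sequenced fragments of a gene per kilobase of its length, scaled to the mapped fragments of the library. It does not measure molecules per embryo. Summed over all listed genes, FPKM came to 632742 and 634816 in the 2-cell libraries and 945465 and 956335 in the blastocysts. An equal FPKM is therefore a smaller share of the summed FPKM in blastocysts, and differences in FPKM lie above differences in that share.

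The oocytes called Tet3-null here came from superovulated females with a Zp3-Cre transgene, 1 floxed and 1 null Tet3 allele. The Zp3 promoter drives Cre in growing oocytes. Wild-type oocytes came from females homozygous for the floxed allele, whose Cre status is not given. Both kinds of oocyte were fertilized in vitro with CAST/EiJ sperm, so every embryo, in either group, received an intact paternal Tet3 allele and a paternal genome of another strain. Zygotes with 2 pronuclei were cultured in KSOM medium, and pools of 10 embryos were frozen at 30 h after fertilization (2-cell stage) or of 7 embryos at 96 h (blastocyst stage). Each pool was lysed whole and its cDNA amplified. A pool is a mixture of cells, and in such bulk samples fewer cells of a type and less RNA per cell cannot be told apart. Whether the 2 pools of a group had separate mothers is not stated. So each p-value reflects no more than the variation between libraries of a group, pooled over the 4 groups. Part of that variation may be technical.

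As background, the early mouse embryo first runs on mRNA stored by the growing oocyte. That mRNA is destroyed by deadenylation and decay around the 2-cell stage, when transcription of the embryo's own genome starts with a burst of stage-restricted genes. By the blastocyst the embryo has formed an outer epithelium, the trophectoderm, and an inner cell mass that splits into epiblast and primitive endoderm. Tet3 is the oocyte-supplied member of the TET family of dioxygenases, which oxidize 5-methylcytosine, and it acts in the zygote.

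Values below are given for replicate 1 and then replicate 2 of a group. Differences are blastocyst minus 2-cell on the scale of log2(FPKM + 1), which understates the change of weakly expressed genes. Each adjusted p comes from limma, fitted over all 8 libraries and adjusted by the Benjamini-Hochberg method over all 12454 genes. A gene is said to be called, or to have risen or fallen, at an adjusted p under 0.05, with n = 2 libraries per group throughout. Between 10612 and 10976 genes reached 1 FPKM in each of the 4 libraries, and read totals are unknown. The blastocyst pair was closer (Pearson's r across genes 0.988) than the 2-cell pair (0.947). Tet3-null 2-cell replicate 2 stood apart. It listed 7101 genes at 0, against 6080 in replicate 1, and its Y-linked transcripts summed to 0.166 FPKM, against 31.7 in replicate 1 and 102 and 94.9 in the blastocysts. Where leaving out 1 library, this or another, moved a list's count or median by over 1.5 times or across 0, the value without it is given.

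Tet3 itself was low at both stages. It stood at 3.28 and 4.41 FPKM in the Tet3-null 2-cell libraries and at 0.519 and 0.412 in the blastocysts. The wild-type libraries had 10.8 and 7.54 FPKM and then 0.957 and 0.459. Within the Tet3-null embryos the fall was 8.27-fold, with a log2 difference of -1.72, SE 0.25, limma adjusted p = 0.000406, and the 2 stages did not overlap. FPKM over the whole gene does not show which exons the remaining reads cover, nor whether they come from the oocyte or from the paternal allele. The other TET genes went the opposite way. Tet2 was at 1.41 and 1.03 FPKM in 2-cell embryos and at 46.7 and 46.6 in blastocysts, 38.2-fold higher (log2 difference 4.43, SE 0.18, limma adjusted p = 1.04e-06). Tet1 rose from 2.097 and 1.95 to 6.81 and 6.74 FPKM (log2 difference 1.36, SE 0.18, limma adjusted p = 0.000303). Dppa3, whose protein Stella shields maternal methylation from oxidation in the zygote, was among the most abundant mRNAs at both stages, at 25556 and 23206 FPKM and then 10582 and 10829 (log2 difference -1.19, SE 0.11, limma adjusted p = 4.71e-05).

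The promoters of Tet3 and Tet2 are shown because these paralogs moved in opposite directions, those of Omt2a and Omt2b because they fell furthest, and that of Capg because it was switched on from almost nothing. Each runs 5′ to 3′ from 250 bases before to 50 bases after the RefSeq start on GRCm38.p6, and capitals mark every CG dinucleotide, the substrate context of TET enzymes and DNA methyltransferases.
Tet3 (chr6:83441629-83441928, minus strand): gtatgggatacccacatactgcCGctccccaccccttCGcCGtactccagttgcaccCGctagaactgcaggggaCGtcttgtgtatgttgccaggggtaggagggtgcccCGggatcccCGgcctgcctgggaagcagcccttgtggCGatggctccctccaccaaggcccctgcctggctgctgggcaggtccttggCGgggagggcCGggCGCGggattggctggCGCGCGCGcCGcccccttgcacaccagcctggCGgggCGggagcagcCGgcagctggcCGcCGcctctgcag
Tet2 (chr3:133544341-133544640, minus strand): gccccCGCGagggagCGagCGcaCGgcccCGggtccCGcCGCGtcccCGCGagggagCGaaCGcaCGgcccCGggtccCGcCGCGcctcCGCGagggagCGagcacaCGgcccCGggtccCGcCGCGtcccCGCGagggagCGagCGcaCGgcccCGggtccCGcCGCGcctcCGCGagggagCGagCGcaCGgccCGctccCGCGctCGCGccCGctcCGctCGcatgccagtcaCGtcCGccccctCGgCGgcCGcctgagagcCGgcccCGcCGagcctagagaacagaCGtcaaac
Omt2a (chr9:78313999-78314298, minus strand): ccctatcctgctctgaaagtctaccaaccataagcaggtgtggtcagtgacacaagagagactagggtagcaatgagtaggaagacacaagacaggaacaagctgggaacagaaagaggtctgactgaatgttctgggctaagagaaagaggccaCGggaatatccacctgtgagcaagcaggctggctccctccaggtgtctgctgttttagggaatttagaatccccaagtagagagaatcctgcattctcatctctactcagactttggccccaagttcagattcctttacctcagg
Omt2b (chr9:78327780-78328079, plus strand): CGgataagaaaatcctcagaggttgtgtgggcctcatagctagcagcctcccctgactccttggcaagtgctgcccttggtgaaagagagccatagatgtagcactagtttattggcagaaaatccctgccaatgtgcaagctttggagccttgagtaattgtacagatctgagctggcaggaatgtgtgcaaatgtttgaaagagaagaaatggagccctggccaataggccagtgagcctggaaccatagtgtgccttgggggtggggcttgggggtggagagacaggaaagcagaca
Capg (chr6:72549397-72549696, plus strand): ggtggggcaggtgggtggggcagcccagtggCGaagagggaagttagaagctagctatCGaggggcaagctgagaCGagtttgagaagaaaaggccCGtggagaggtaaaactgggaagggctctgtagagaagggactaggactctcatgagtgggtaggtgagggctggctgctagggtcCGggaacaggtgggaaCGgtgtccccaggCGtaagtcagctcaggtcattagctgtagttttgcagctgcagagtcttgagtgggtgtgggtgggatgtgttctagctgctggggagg
The motif searched was CG, which reads the same on both strands. It occurred 22 times in the Tet3 window, 57 times in that of Tet2, 7 times in that of Capg and 1 time in each Omt2 window. Over all 32851 promoters of the RefSeq table the median was 7, and 94.6% held at least 1. Over the 12375 promoters matched to genes tested here the median was 19, with 79.7% of these genes matched (small RNA entries left out). These counts describe the letters only, since methylation was not measured in these libraries. CG content was not compared between the classes of genes below. Only 77.3% of cleared and 77.1% of switched-on genes matched a promoter, under the 80% asked for, a limit that was a choice.

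Most of the transcriptome moved. Of the 12454 genes, 9645 were called (77.4%), 5182 higher (41.6%) and 4463 lower (35.8%) in blastocysts. Without regard to a test, 5828 genes (46.8%) were higher in both blastocyst libraries than in both 2-cell libraries, and 5088 (40.9%) were lower in both. The genes were sorted into 6 classes. A gene was cleared if it fell by at least 1 on the log2 scale from at least 1 FPKM in both 2-cell libraries to under 1 in both blastocyst libraries, and switched on in the mirror case. Other called risers are termed raised (raised from detected in the plots) and other called fallers lowered but retained, whatever their level in a single library. A gene was kept if it was not called, was at 1 FPKM or more in all 4 libraries, and had a 95% interval of the difference inside -1 to 1. The rest were not resolved.

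Cleared genes numbered 1563 (12.6%), lowered but retained genes 2900 (23.3%), kept genes 1566 (12.6%), raised genes 3923 (31.5%), switched-on genes 1259 (10.1%) and unresolved genes 1243 (9.98%). A filter that asks for 1 FPKM in 2 libraries lets a gene in through 1 stage alone. In that way 1754 genes entered only through the 2-cell libraries and 1448 only through the blastocysts, and such genes had to differ. The edge of the filter ran between Smad5 and Mex3d, each with a second-highest value of 1.001 FPKM, and Ccdc65 and Acap2, just outside with 0.9998 and 0.9990. The median difference over all genes was 0.17, and 0.12 after median-of-ratios scaling or 0.06 after quantile normalization.

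**Figure D1:**
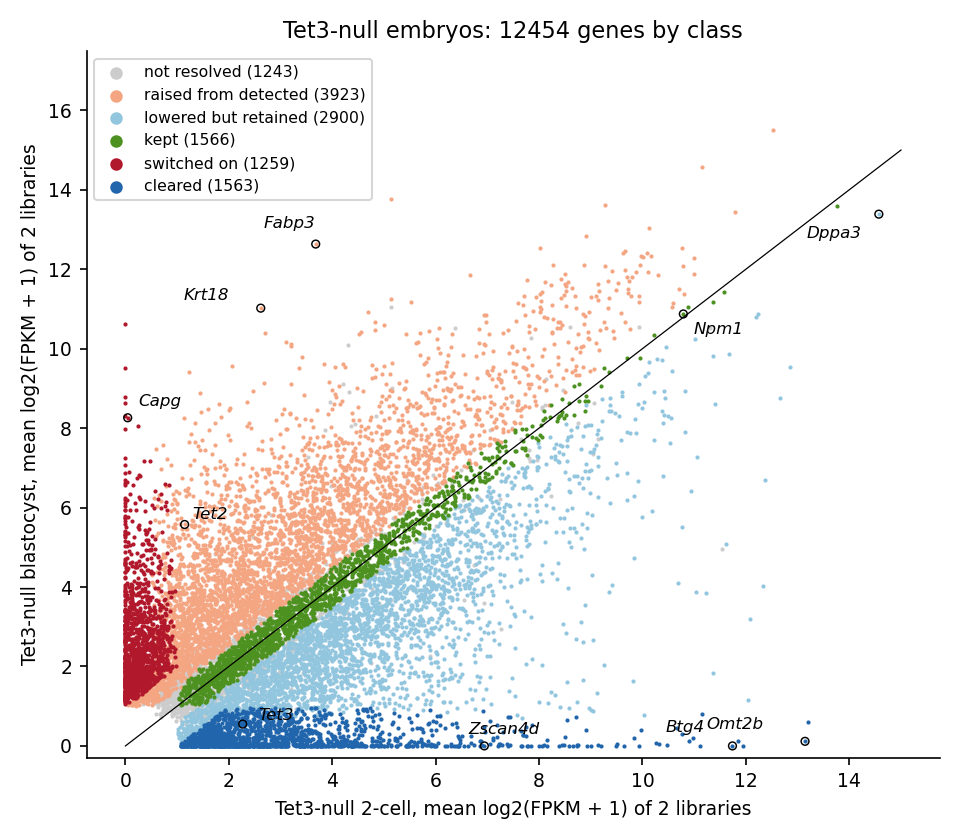
Mean log2(FPKM + 1) of the 2 Tet3-null 2-cell libraries (x axis) against that of the 2 Tet3-null blastocyst libraries (y axis) for 12454 genes, coloured by class, with the diagonal of no difference as a line. The 1563 cleared genes lie along the x axis, the 1259 switched-on genes along the y axis and the 1566 kept genes on the diagonal.

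The classes were also weighed by their share of the mRNA. Cleared genes made up 10.8% and 13.7% of the summed FPKM in the 2-cell libraries (small RNA entries left out) and 0.0400% and 0.0369% in blastocysts. Lowered but retained genes went from 47.7% and 49.4% to 8.99% and 8.90%, so these 2 classes together held the larger part of the 2-cell mRNA. Raised genes went from 26.5% and 23.6% to 80.1% and 80.4%, whereas switched-on genes reached only 1.45% and 1.37%. Kept genes held 12.6% and 11.3%, then 8.01% and 7.88%, a smaller share at a similar FPKM, since the summed FPKM was higher in blastocysts.

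**Figure D2:**
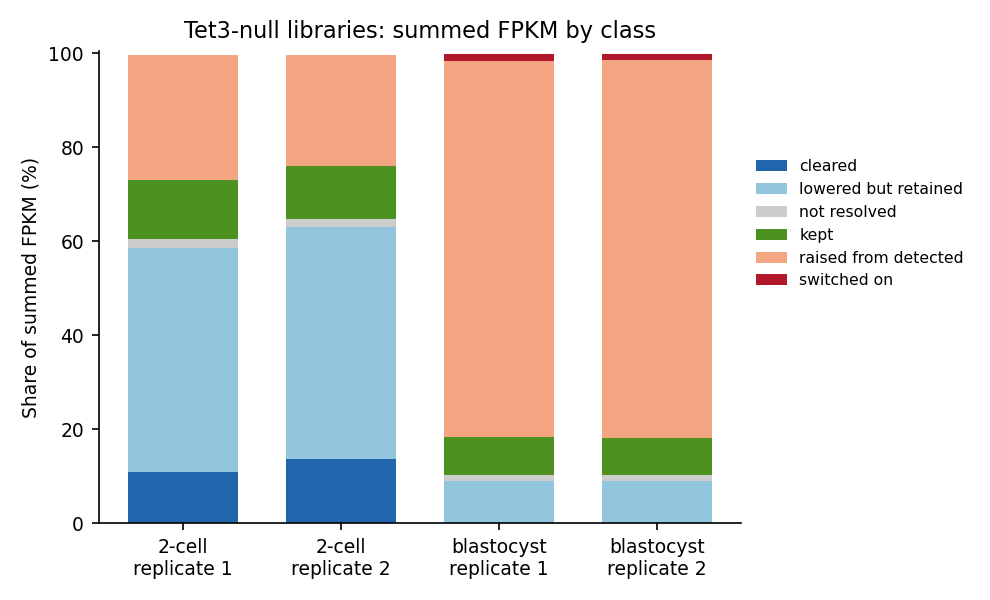
Share of the summed FPKM (%, y axis) held by each class in the 4 Tet3-null libraries (x axis), small RNA entries left out. Raised genes fill 80.1% and 80.4% of the blastocyst libraries, and lowered but retained genes 47.7% and 49.4% of the 2-cell libraries.

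Gene lists were used to describe which functions the classes hold. In each list the tested genes are those that passed the filter, so the counts describe the lists beside the 41.6% higher and 35.8% lower of all genes, and no list was tested as a group. The genes with the largest differences were named by rule, and other members given as examples were chosen after their values were seen. Values of close gene copies (Omt2a and Omt2b, and the Tcl1b, Obox, Oog, Zscan4, Usp17-like and Tdpoz families) are uncertain, because the treatment of reads shared between copies is not given in the sources used here. The same holds for ribosomal protein genes, which have many pseudogenes.

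**Figure D3:**
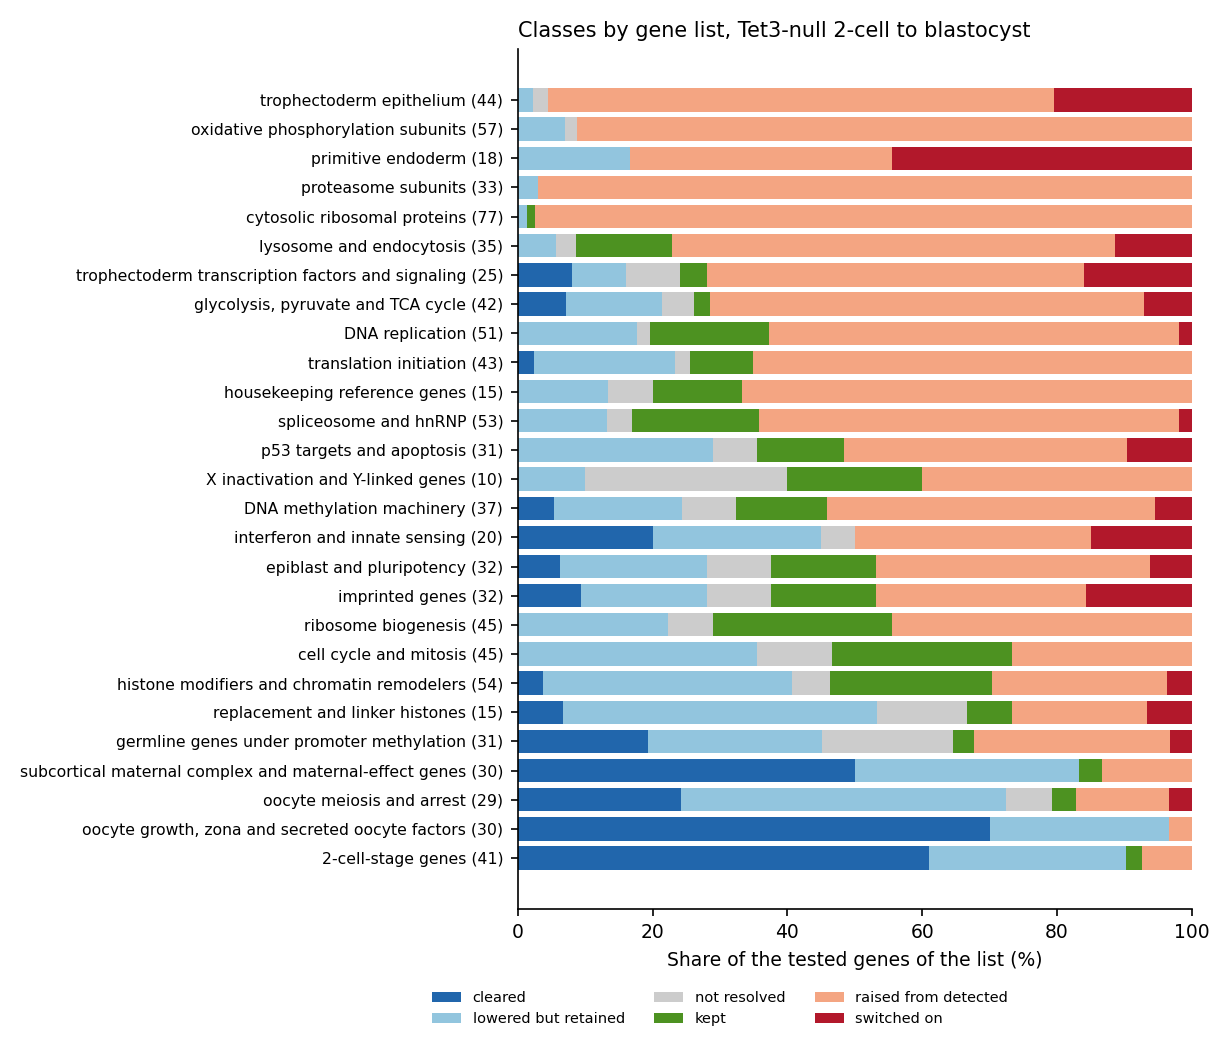
Share of the tested genes (%, x axis) in each class for the 27 lists with at least 10 tested genes (y axis, number tested in parentheses), ordered by median log2 difference. Cleared and lowered genes fill the 4 lists of oocyte, maternal and 2-cell-stage genes at the bottom, and raised and switched-on genes fill those of the trophectoderm epithelium, the primitive endoderm and the respiratory chain at the top.

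Oocyte-growth genes nearly all fell. Of 30 tested, 29 fell and 21 were cleared, with a median difference of -4.49, and 21 had entered through the 2-cell libraries only. The list held 2.24% and 2.55% of the summed FPKM in 2-cell embryos and 0.00757% and 0.00720% in blastocysts. Oosp1, a secreted oocyte protein, went from 1530.0 and 1992 FPKM to 0.324 and 0.162 (log2 difference -10.46, SE 0.18, limma adjusted p = 4.89e-08). Zp3, the zona pellucida protein that gives the Cre driver its promoter, went from 68.1 and 47.0 to 0.739 and 0.229 FPKM. The paracrine factors that oocytes send to their granulosa cells were also cleared, Gdf9 from 48.0 and 84.7 to 0.705 and 0.692 FPKM and Bmp15 from 77.4 and 173 to 0.158 and 0.0349.

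The Tcl1 family, activators of the kinase AKT, fell together. Tcl1 went from 4231 and 4418 to 7.60 and 8.72 FPKM (log2 difference -8.89) and Tcl1b1 from 1979 and 1845 to 0 and 0.194 (log2 difference -10.77, SE 0.15, limma adjusted p = 2.34e-08). Tcl1b2, Tcl1b3, Tcl1b4 and Tcl1b5 started between 273 and 1039 FPKM and were each at 0.0548 FPKM or below in blastocysts. E330034G19Rik, whose role is not known here, fell from 1827 and 2226 to 0.0995 and 0.218 FPKM. The lone riser was Figla, a transcription factor of oocyte-specific genes, at 0.624 and 1.43 FPKM and then 3.40 and 3.38, and its call was lost without 2-cell replicate 1 or either blastocyst replicate.

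The subcortical maternal complex, a protein assembly at the cortex of the oocyte and cleavage embryo, held members that moved in both directions. Nlrp5, its large scaffold protein, was cleared, from 24.5 and 30.4 FPKM to 0.0388 and 0.157, and so was Zbed3, from 687 and 1454 to 0.306 and 0.334 (log2 difference -9.57, SE 0.33, limma adjusted p = 5.63e-07). Ooep, Tle6 and Padi6 fell less and stayed well detected. Ooep went from 52.5 and 64.4 to 30.6 and 31.6 FPKM, Tle6 from 9.58 and 8.61 to 5.28 and 3.73 and Padi6 from 16.7 and 18.7 to 9.37 and 8.98. Khdc3 (Filia, listed under its older name 2410004A20Rik), which safeguards chromosome stability, rose from 3.54 and 9.08 to 114 and 120.3 FPKM (log2 difference 4.13, SE 0.34, limma adjusted p = 2.14e-05).

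Among all 30 tested genes of the complex and of other maternal-effect genes, 25 fell, 15 of them cleared, 4 rose and 1 was kept (median -1.63). Through the 2-cell libraries only, 15 had entered. Beside Khdc3 the risers were Trim28, the corepressor that protects imprints, at 31.1 and 28.1 and then 123 and 134 FPKM, Smarca4, an ATPase of chromatin remodelling, at 7.08 and 2.78 and then 18.04 and 17.4, and the RNA-binding decay factor Zfp36l2. Omt2b had the largest fall of all named genes. Omt2b stood at 8621 and 9506 FPKM in 2-cell embryos and at 0.0836 and 0.0830 in blastocysts (log2 difference -13.03, SE 0.13, limma adjusted p = 1.19e-08). Omt2a stood at 8903 and 9959 and at 0.649 and 0.402 (log2 difference -12.60, SE 0.17, limma adjusted p = 2.34e-08). Oog3 went from 3572 and 3830.4 to 0.170 and 0.0104 FPKM and Rfpl4, which encodes a RING finger protein of oocytes, from 793 and 1052 to 0.276 and 0.0149. C86187, whose role is not known here, fell from 4199 and 4236 to 1.86 and 0.727 FPKM (log2 difference -10.89, SE 0.29, limma adjusted p = 2.12e-07).

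Several genes that store or destroy maternal mRNA fell in turn. Btg4, the adaptor that brings the CCR4-NOT deadenylase to maternal mRNAs, was at 2442 and 4793 FPKM in 2-cell embryos and listed at 0 in both blastocyst libraries (log2 difference -11.74, SE 0.29, limma adjusted p = 1.64e-07). The deadenylase subunits Cnot7 and Cnot6l fell from 149.7 and 196 to 7.23 and 7.01 FPKM and from 46.9 and 91.1 to 2.63 and 1.66. The decapping enzyme Dcp2 was cleared, from 11.2 and 12.1 to 0.942 and 0.924 FPKM. Its activator Dcp1a, at 4.60 and 9.11 and then 5.18 and 3.25, was not called, and the decay helicase Ddx6 was kept, at 7.05 and 4.78 and then 5.67 and 6.29. Ybx2, which stores and silences mRNA in the oocyte, fell from 55.7 and 66.2 to 9.95 and 12.5 FPKM.

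Of 29 tested genes of oocyte meiosis, its arrest and this mRNA control, 21 fell, 7 of them cleared, and 5 rose (median -2.06). Entry was through the 2-cell libraries only for 7 and through the blastocysts only for 1. Mos, the kinase of the metaphase arrest, went from 3.88 and 2.9996 FPKM to 0 in each blastocyst library. Wee2, the oocyte's inhibitor of CDK1, went from 226 and 283 FPKM to 0 in both blastocyst libraries (log2 difference -7.99, SE 0.18, limma adjusted p = 1.18e-07). Aurkc, the germ cell Aurora kinase, went from 116 and 114 to 4.13 and 4.77. The risers were Ccnb2, Bub1b, Cdc25b, Stag3 and Rec8. Rec8, a cohesin subunit of meiosis, was switched on, at 0.0559 and 0.103 FPKM and then 4.73 and 3.59. The list had 4 higher and 21 lower without 2-cell replicate 2.

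Genes listed for the 2-cell stage, many of them markers of the first wave of embryonic transcription, mostly fell. The list also holds an oocyte mRNA, Eif4e1b, and stored and newly made mRNA were not told apart. Of 41 tested, 37 fell, 25 of them cleared, 3 rose and 1 was kept (median -4.65), and 25 had entered through the 2-cell libraries only. Zscan4d, of the zinc finger family that marks 2-cell-like cells, was at 99.0 and 150.1 FPKM and listed at 0 in both blastocyst libraries (log2 difference -6.94, SE 0.26, limma adjusted p = 6.65e-07). Zscan4c, from 34.2 and 54.6 FPKM, was likewise listed at 0. Zfp352 went from 355 and 641 to 0.265 and 0.380 FPKM, Tcstv3 from 358 and 404 to 0.732 and 1.18 and Gm4850 from 2149 and 2422 to 0.642 and 0.881. Dux, the homeodomain activator of this programme, was already low at 30 h and was cleared, from 1.15 and 2.16 to 0.165 and 0.0832 FPKM.

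Homeobox genes of the Obox family were strongly expressed and then removed. Obox3 went from 1772 and 1490.3 to 0.291 and 0.425 FPKM (log2 difference -10.23, SE 0.15, limma adjusted p = 2.34e-08), Obox5 from 1219.5 and 1669 to 0.0179 and 0.0176 and Obox6 from 549 and 409 to 7.24 and 15.7. Dub1a, of the Usp17-like deubiquitinases, went from 458 and 403 to 0 and 0.0184 FPKM (log2 difference -8.74). The 3 risers were the translation factor genes Eif1a and Eif1ad and Dppa2. Dppa2, a DNA-binding protein upstream of the 2-cell programme, was at 151 and 93.4 FPKM and then 264 and 275, while its partner Dppa4 was kept, at 371 and 196 and then 283 and 308.

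The 10 most abundant kept genes had 2-cell and blastocyst levels within a factor of 1.19 of each other. Npm1, a nucleolar chaperone, was at 1665 and 1881 FPKM and then 1822 and 1931 (log2 difference 0.08, 95% interval -0.22 to 0.38). H2afz, the histone variant H2A.Z, was at 2080.3 and 1688 and then 2074 and 2163. Map1lc3b, the autophagosome protein LC3B, was at 3028 and 2293 and then 2249 and 2338. Rpl41 was the most abundant of them, at 15927 and 12268 FPKM and then 12401 and 12494, and Rps27l, Erh, Tceb1, Sepw1, Ost4 and D8Ertd738e completed the set. This class rests on the deposited scaling. After quantile normalization the difference was -1.10 for Rpl41, -0.77 for Npm1 and -0.63 for H2afz, and all 10 except Ost4 were called lower. Map1lc3b and Sepw1 were called without 2-cell replicate 2 and Ost4 without 2-cell replicate 1. Uncalled differences changed sign without 2-cell replicate 1 (Npm1, Map1lc3b, Rpl41 and Sepw1), and for D8Ertd738e without replicate 2 and after median-of-ratios scaling.

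Of the 15 named genes with the largest increases, Fabp3, Krt18 and Cldn4 belong to the trophectoderm epithelium. Fabp3, a fatty acid-binding protein, rose 535-fold, from 10.6 and 13.2 FPKM to 6526 and 6184 (log2 difference 8.95, SE 0.17, limma adjusted p = 7.52e-08). Krt18 rose 399-fold, from 6.15 and 4.27 to 2170.4 and 1985 FPKM (log2 difference 8.403, SE 0.19, limma adjusted p = 1.29e-07), and its filament partner Krt8 went from 7.87 and 8.65 to 571 and 527. These keratins form the first intermediate filaments of the embryo. Of 44 tested genes of the trophectoderm epithelium, 42 rose, 9 of them switched on, and 1 fell, with a median of 3.24. Through the blastocysts only, 9 had entered. The list's share of the summed FPKM went from 0.0961% and 0.0939% to 2.02% and 1.84%.

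Within this epithelium, tight junction genes ranged widely. Cldn4, a claudin, rose from 0.532 and 3.86 FPKM to 533 and 422, Cldn7 from 2.49 and 1.502 to 128 and 118, and Ocln from 4.85 and 6.21 to 14.8 and 15.2. Tjp1, which encodes the scaffold ZO-1, was at 4.66 and 3.87 and then 7.32 and 5.75 and was not called. Desmosome genes were among those switched on, such as Dsp, from 0.260 and 0.229 to 13.8 and 14.9 FPKM. The water channel gene Aqp3 rose from 1.89 and 1.91 to 194 and 153 FPKM. The lone faller was the sodium pump subunit Atp1b3, from 31.9 and 24.1 to 11.9 and 16.4, while its paralog Atp1b1 rose from 8.97 and 9.57 to 20.4 and 19.9. Anxa2, a membrane-binding annexin, rose from 6.49 and 4.51 to 615 and 507 FPKM (log2 difference 6.44, SE 0.20, limma adjusted p = 3.44e-07).

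The transcription factors and signalling genes of the trophectoderm were more mixed. Of 25 tested, 18 rose, 4 of them switched on, and 4 fell (median 1.65). Entry was through the blastocysts only for 4 and through the 2-cell libraries only for 2. Cdx2, which specifies the lineage, was switched on, from 0.124 and 0 FPKM to 7.79 and 5.67 (log2 difference 2.85, SE 0.22, limma adjusted p = 1.68e-05). Gata3 was already present at the 2-cell stage, at 9.26 and 12.3 FPKM, and reached 184 and 172, a 16.5-fold rise. Elf3 went from 30.5 and 27.6 to 419.9 and 339 FPKM and Klf6 from 1.31 and 0.474 to 31.4 and 27.3. The Hippo pathway, which restricts the trophectoderm programme to outer cells, held both directions. Its coactivator Yap1 fell, from 74.7 and 79.9 to 11.8 and 12.96 FPKM, and the related Wwtr1 (TAZ) rose, from 3.70 and 2.51 to 17.98 and 19.8. Their DNA-binding partner Tead4 went from 8.41 and 5.02 to 15.7 and 15.01. Upstream regulators Amot, Amotl2 and Lats2 were switched on, with Amotl2 going from 0.533 and 0.432 to 12.8 and 16.6. Id1, a BMP target, fell from 74.6 and 47.0 to 2.87 and 2.05, whereas Id2 rose from 43.7 and 79.1 to 420.0 and 391.

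**Figure D4:**
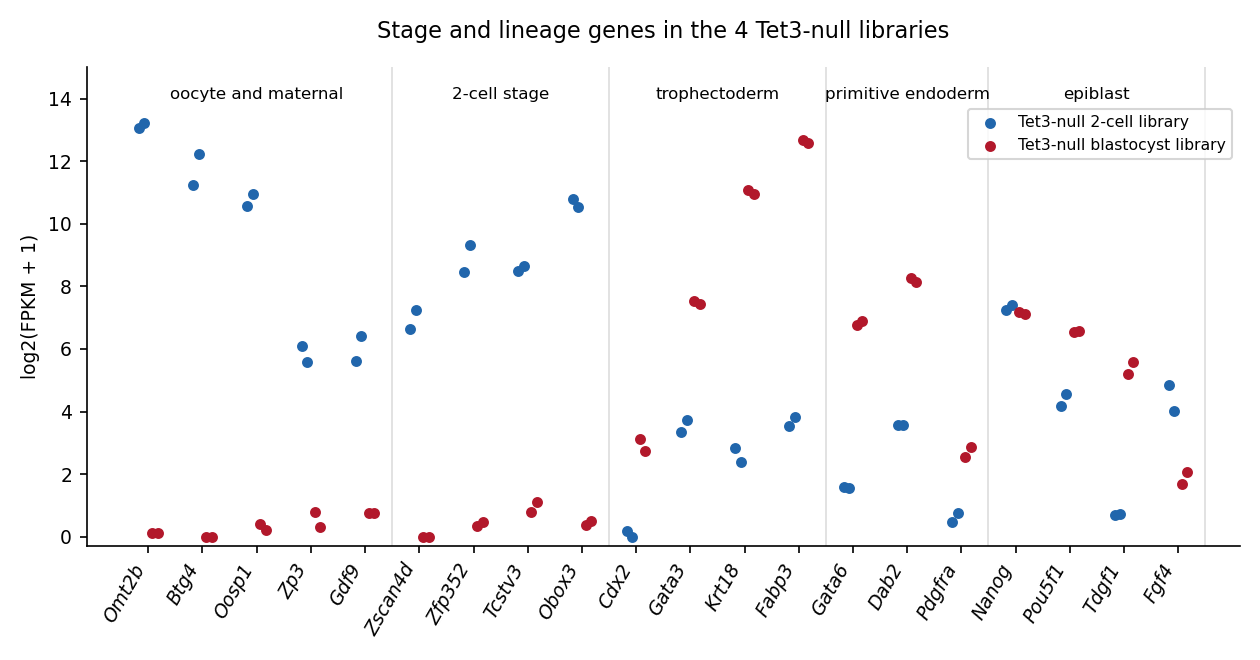
Log2(FPKM + 1) (y axis) of oocyte, 2-cell-stage, trophectoderm, primitive endoderm and epiblast genes (x axis) in the 2 Tet3-null 2-cell libraries (blue) and the 2 Tet3-null blastocyst libraries (red), 1 point per library. The oocyte and 2-cell-stage genes are high in 2-cell embryos and the trophectoderm and primitive endoderm genes in blastocysts, while Nanog is nearly level, at 151 and 167 FPKM and then 145 and 138.

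Primitive endoderm genes rose from low levels, with exceptions. Of 18 tested, 15 rose, 8 of them switched on, and 3 fell (median 2.66). Of the 30 listed genes 12 did not pass the filter, and 8 entered through the blastocysts only, so those 8 had to differ. Srgn had the largest fall, from 65.4 and 90.6 to 3.13 and 2.56 FPKM (log2 difference -4.35, SE 0.29, limma adjusted p = 8.46e-06). Gata6, the first transcription factor of the lineage, rose 57.9-fold, from 1.98 and 1.95 FPKM to 109 and 119 (log2 difference 5.27, SE 0.15, limma adjusted p = 2.59e-07). Pdgfra, its receptor tyrosine kinase marker, was switched on, from 0.384 and 0.708 to 4.89 and 6.34. The endocytic receptor Lrp2 went from 0.0686 and 0 to 56.9 and 49.1 FPKM and its adaptor Dab2 from 10.97 and 10.9 to 310.0 and 278. Basement membrane genes were switched on together, Col4a1 from 0.166 and 0.0220 to 11.8 and 13.8, Lamc1 from 0.948 and 0.601 to 7.71 and 6.64 and Nid1 from 0.156 and 0.0253 to 4.96 and 5.41. Later markers of the lineage were absent or low. Sox17 was at 0.699 and 0.781 FPKM in blastocysts and did not pass the filter, nor did Sox7, Foxa2 and Hnf4a, while Gata4 fell from 12.7 and 4.54 to 1.97 and 1.68.

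Epiblast and pluripotency genes showed neither a common rise nor a common fall. Of 32 tested, 15 rose, 9 fell and 5 were kept (median 0.36), and without 2-cell replicate 2 the counts were 13 and 9. The median was 0.59 without 2-cell replicate 1 and 0.62 without blastocyst replicate 1. Pou5f1 (Oct4) rose from 17.1 and 22.4 FPKM to 92.7 and 93.9 (log2 difference 2.197, SE 0.19, limma adjusted p = 2.49e-05). Nanog was kept, with a difference of -0.17, and Sox2, at 2.09 in each and then 2.68 and 6.89, was not called, with blastocyst libraries that lay apart. Tdgf1, the Nodal coreceptor Cripto, was switched on, from 0.599 and 0.648 to 35.5 and 46.4. Tfcp2l1 rose from 1.66 and 1.70 to 61.2 and 55.4, and Zfp42 (Rex1) from 28.1 and 24.8 to 208 in each. Among the fallers, Fgf4, the growth factor by which epiblast signals to primitive endoderm, went from 28.1 and 15.1 to 2.21 and 3.24 FPKM and Klf4 from 31.2 and 31.4 to 10.9 and 16.98.

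The DNA methylation machinery held both risers and fallers. Of 37 tested members, 20 rose (54.1%, beside 41.6% of all genes) and 9 fell (24.3%, beside 35.8%), with a median of 0.63. The wild-type counts were also 20 and 9. The de novo methyltransferase Dnmt3b rose from 2.54 and 4.07 FPKM to 36.5 and 37.5 (log2 difference 3.16, SE 0.23, limma adjusted p = 1.12e-05), while Dnmt3a fell from 10.6 and 9.20 to 6.37 and 7.09. Their cofactor Dnmt3l rose from 26.9 and 32.4 to 81.7 and 81.9. Of the maintenance genes, Dnmt1 rose from 6.98 and 7.14 to 10.4 and 11.2 and its recruiter Uhrf1 from 18.3 and 31.6 to 49.0 and 49.97. Of the base excision repair genes, which can replace oxidized cytosine, Apex1, Parp1, Xrcc1, Lig3, Ung, Tdg and Neil1 rose, Neil3 fell and Smug1 was not called. Tdg, the glycosylase that removes oxidized cytosine, was at almost 0 in both 2-cell libraries and at 4.71 and 6.77 FPKM in blastocysts, and Neil1 was listed at 0 and then at 14.1 and 6.93. Xrcc1, the repair scaffold, rose 41.9-fold, from 2.38 and 1.61 to 82.1 and 85.0 (log2 difference 4.83, SE 0.19, limma adjusted p = 8.08e-07). Idh1, which makes the cosubstrate of TET enzymes, rose from 8.09 and 15.4 to 179 and 168. Gadd45a, linked to repair, fell from 57.7 and 74.1 to 1.46 and 2.44.

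Imprinted genes had 15 risers and 9 fallers of 32 tested (median 0.33). There were 16 and 10 without 2-cell replicate 2. The median was 0.52 without 2-cell replicate 1 and 0.195 without blastocyst replicate 2. Cd81, a tetraspanin of the Kcnq1 imprinted region, was switched on, from 0.405 and 0.359 FPKM to 155 and 132 (log2 difference 6.70, SE 0.16, limma adjusted p = 1.57e-07), and so was the amino acid transporter Slc38a4, from 0.706 and 0.120 to 46.9 and 50.03. Phlda2, a growth-restraining gene of the placenta, fell 75.7-fold, from 553 and 315 to 4.02 and 7.45. Impact, a regulator of translation, rose from 7.14 and 5.57 to 57.8 and 68.1. H19, Igf2 and Dlk1 stayed below 1 FPKM in all 4 libraries.

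Germline genes that are silenced by promoter methylation in somatic cells had 10 risers and 14 fallers of 31 tested (median -0.57). Without 2-cell replicate 2 there were 9 and 14, with a median of -0.25, and the median was -0.37 without blastocyst replicate 1. Brdt, a bromodomain protein of germ cells, fell from 389.8 and 549.9 FPKM to 2.35 and 2.02 (log2 difference -7.19, SE 0.20, limma adjusted p = 2.24e-07), the RNA-binding protein gene Dazl from 47.9 and 99.9 to 2.19 and 2.13, and Mael, of the piRNA pathway, from 20.7 and 22.4 to 0.798 and 0.776. Others rose, such as Cyct, the testis cytochrome c, from 1.69 and 2.12 to 31.2 and 23.3, and Fkbp6 from 11.9 and 11.01 to 92.9 and 129.9.

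Chromatin genes moved in both directions, with 16 risers, 22 fallers and 13 kept of 54 tested (median -0.25, or -0.15 without 2-cell replicate 1 or blastocyst replicate 1). Bmi1, a Polycomb RING subunit, had the largest fall, from 232 and 301 FPKM to 3.33 and 2.93 (log2 difference -6.01, SE 0.18, limma adjusted p = 3.61e-07). Of the Polycomb repressive complex that methylates H3K27, Ezh2 and Suz12 fell, Eed and Jarid2 rose, and Jarid2 went from 15.2 and 18.4 to 81.2 and 81.9. The H3K9 methyltransferases also parted. Suv39h2 fell from 10.2 and 16.3 to 0.805 and 1.11, Ehmt2 (G9a) rose from 3.23 and 2.03 to 20.3 and 19.23, and Setdb1 was kept. Sirt1, a deacetylase, fell from 46.6 and 34.2 to 5.82 and 6.11, and Hdac3 rose from 1.13 and 0 to 15.7 and 15.1.

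Histone variants moved in both directions. H1foo, the oocyte linker histone, fell 33.3-fold, from 56.8 and 89.3 FPKM to 2.26 and 2.12 (log2 difference -4.50, SE 0.38, limma adjusted p = 2.58e-05), and Hist1h1b, a somatic linker histone, rose 13.4-fold, from 9.24 and 5.50 to 103 and 93.6. H2afy, which encodes macroH2A, rose from 2.68 and 2.42 to 135 and 154 (log2 difference 5.36, SE 0.27, limma adjusted p = 2.19e-06). The replacement histone genes H3f3a and H3f3b, which supply H3.3 to the paternal chromatin after fertilization, fell from 487 and 465 to 261 and 266 and from 1898 and 1735 to 512 and 471. In all, 4 of the 15 tested rose and 8 fell (median -0.53).

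DNA replication genes mostly rose. Of 51 tested, 32 rose, 9 fell and 9 were kept (median 1.27). The helicase subunits Mcm2, Mcm3, Mcm4, Mcm5 and Mcm7 rose, Mcm7 from 13.8 and 15.4 FPKM to 150.5 and 157, and Mcm6 was kept. Pold2, a subunit of the lagging-strand polymerase, rose 63.1-fold, from 1.71 and 0.476 to 77.3 and 60.9 (log2 difference 5.12, SE 0.29, limma adjusted p = 4.04e-06). Lig1, the replicative ligase, rose from 0.882 and 1.02 to 44.1 and 50.6, and the clamp loader subunit Rfc4 from 9.01 and 5.81 to 179 and 185. The 9 fallers were Orc1, Orc2, Orc4, Orc6, Cdc45, Gins4, Gmnn, Pola2 and Dbf4. Orc6, of the origin recognition complex, went from 409.6 and 411 to 111 and 109, the licensing inhibitor Gmnn from 989.7 and 762 to 225 and 241, and Dbf4, the activator of the CDC7 kinase, from 266 and 263 to 22.1 and 22.6.

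Genes of the cell cycle and mitosis were split, with 12 risers, 16 fallers and 12 kept of 45 tested (median -0.21). Without 2-cell replicate 2 there were 12 risers and 20 fallers and the median was -0.38, and without 2-cell replicate 1 it was 0.00015. Cdk4, the kinase of the G1 phase, rose 22.0-fold, from 11.6 and 8.30 FPKM to 221 and 216 (log2 difference 4.34, SE 0.32, limma adjusted p = 1.28e-05), and its partner Ccnd3 from 2.24 and 2.33 to 24.2 and 24.7. The S-phase cyclin Ccne2 fell 18.01-fold, from 14.8 and 13.6 to 1.05 and 0.531, and Plk4, the kinase of centriole duplication, fell from 41.9 and 64.8 to 4.45 and 3.08. The spindle genes Kif11, Kif23, Tpx2 and Prc1 were kept.

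Ribosomal protein genes rose nearly as a block. Of 77, 75 rose, Rpl30 fell and Rpl41 was kept, with a median of 2.32. Their share of the summed FPKM went from 11.04% and 9.22% to 24.2% and 25.1%. Rps18 rose 14.9-fold, from 616 and 374 FPKM to 7061 and 7651 (log2 difference 3.93, SE 0.24, limma adjusted p = 4.99e-06), and Rpl14 from 213 and 206 to 2485 and 2607. Genes that build ribosomes were divided. Of 45 ribosome biogenesis genes, 20 rose, 10 fell and 12 were kept (median 0.29). Without 2-cell replicate 2 there were 14 of each with a median of 0.17, the median was 0.61 without 2-cell replicate 1, and 11 rose without blastocyst replicate 1, where Rpl30 also lost its call. After quantile normalization 13 rose and 16 fell with a median of -0.09. Rrp1 rose from 21.7 and 22.2 to 104 and 97.7 FPKM, and Taf1d, a subunit of the initiation factor of RNA polymerase I, fell from 498 and 508 to 77.8 and 84.0 (log2 difference -2.62, SE 0.12, limma adjusted p = 1.67e-06).

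Translation initiation genes had 28 risers and 10 fallers of 43 (median 1.09). The risers included subunits of eIF3, with Eif3d going from 9.96 and 5.36 FPKM to 356 and 363 (log2 difference 5.43, SE 0.26, limma adjusted p = 1.90e-06) and Eif3k from 102 and 82.0 to 894 and 930.0. Fallers included Eif1, a start-codon selection factor, from 2180.0 and 2071 to 147 and 164 (log2 difference -3.77, SE 0.13, limma adjusted p = 5.37e-07), Eif5, and the cap-binding genes Eif4e and Eif4e1b. Eif4e1b, the oocyte form, went from 21.3 and 21.7 to 1.96 and 0.937. All proteasome genes tested rose except Psme3, an activator of the nuclear proteasome, which fell from 18.4 and 21.3 to 14.3 and 11.6. These were 32 of 33, with a median of 2.55, and Psma5 rose 31.3-fold, from 21.4 and 12.6 to 519 and 547. The call of Psme3 was lost without 2-cell replicate 2 or blastocyst replicate 2. Of 53 spliceosome and hnRNP genes, 34 rose and 7 fell (median 0.81). Eftud2, the GTPase of the U5 particle, rose from 1.13 and 0.640 to 38.7 and 34.4. The 7 fallers were Snrpc, Snrpe, Snrpf, Snrpg, Lsm2, U2af1 and Srsf10. Snrpf, an Sm protein, went from 163 and 109 to 26.3 and 30.1, and U2af1, which reads the 3′ splice site, from 551 and 508 to 179 and 159. After quantile normalization 14 fell, and without blastocyst replicate 2 only 4.

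Genes of the respiratory chain mostly rose. Of 57 oxidative phosphorylation genes, 52 rose and 4 fell (median 2.98), and their share of the summed FPKM went from 1.61% and 1.53% to 4.19% and 4.35%. Ndufa8, of complex I, rose 117-fold, from 3.50 and 2.71 FPKM to 371 and 357 (log2 difference 6.48, SE 0.15, limma adjusted p = 1.31e-07), and Ndufs7 from 14.8 and 11.9 to 770.3 and 800.0. Uqcrc1, of complex III, was at 18.7 and 1.89 and then 297 and 293, with 2-cell libraries that lay far apart. The fallers Ndufa4, Ndufb2, Cox5b and Cox8a were abundant at the 2-cell stage, Cox8a at 1553 and 1155 FPKM and then 234 and 334. There were 2 fallers without 2-cell replicate 2, blastocyst replicate 1 or either wild-type blastocyst replicate.

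Genes of glycolysis, pyruvate use and the TCA cycle had 30 risers and 9 fallers of 42 (median 1.62). Suclg1, a TCA cycle enzyme, rose 193-fold, from 2.02 and 1.51 FPKM to 340.0 and 341 (log2 difference 6.95, SE 0.22, limma adjusted p = 3.78e-07). Hk2, the hexokinase at the entry of glycolysis, rose from 3.97 and 3.28 to 95.1 and 78.8, and the glucose transporter Slc2a3 from 3.47 and 4.55 to 60.4 and 47.0. Ldhb, a lactate dehydrogenase subunit, fell 600.3-fold, from 411 and 682 to 1.39 and 0.428 (log2 difference -8.16, SE 0.37, limma adjusted p = 1.55e-06), and the mitochondrial pyruvate carrier genes Mpc1 and Mpc2 (listed as Brp44l and Brp44) fell from 503 and 519 to 266 and 271 and from 214 and 86.7 to 11.9 and 14.2.

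Lysosome and endocytosis genes had 27 risers and 2 fallers of 35 (median 2.19). Ctsd, cathepsin D, rose 120.1-fold, from 2.11 and 2.58 FPKM to 297 and 267 (log2 difference 6.403, SE 0.18, limma adjusted p = 2.63e-07), and Psap, the saposin precursor, from 1.84 and 1.23 to 172 and 125. The fallers were Lamp2 and Ctsl, the latter from 324 and 337 to 149 and 140.0. A single faller was left without 2-cell replicate 1, without either Tet3-null blastocyst replicate or without either wild-type blastocyst replicate. Several of the largest increases were outside the lists. Capg, an actin-capping protein, was at 0 and 0.0623 FPKM and then 298 and 314 (log2 difference 8.22, SE 0.16, limma adjusted p = 7.52e-08). Ass1, of arginine synthesis, rose 509-fold, from 1.4996 and 1.18 to 722 and 644, Fbp2, of gluconeogenesis, from 3.70 and 2.71 to 705 and 797, and the betaine enzyme Bhmt from 11.2 and 5.95 to 882 and 1317. Cryab, a small heat shock protein, was switched on, from 0.327 and 0.0577 to 275 and 255, and the proteoglycan Sdc4 rose from 3.21 and 9.08 to 1460.0 and 1225. Eef1g, Acaa2, Mrpl36, Adh1 and AA467197 had log2 differences of 6.92, 7.11, 6.87, 6.87 and 7.07.

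Genes of p53 and apoptosis had 16 risers and 9 fallers of 31 (median 0.79). Trp53 rose from 59.9 and 30.2 FPKM to 147 and 138 and its target Cdkn1a from 19.7 and 26.7 to 109.8 and 104. Bcl2l10, an oocyte survival factor of the BCL2 family, fell from 899 and 1201 to 1.04 and 0.423 (log2 difference -9.25, SE 0.25, limma adjusted p = 2.32e-07). The proapoptotic Bik fell from 49.3 and 87.6 to 8.24 and 5.48, and Bad rose from 6.04 and 8.38 to 119 and 114. Interferon and innate sensing genes had 10 risers and 9 fallers of 20 (median 0.49), with 14 of 34 under the filter. Without 2-cell replicate 2 there were 9 of each, with a median of 0.32, which was also the median without blastocyst replicate 1. The transcription factor Irf1 was cleared, from 24.4 and 20.5 to 0.459 and 0.583 (log2 difference -3.94, SE 0.18, limma adjusted p = 1.75e-06). The antiviral membrane proteins parted, since Ifitm3 fell from 101.0 and 129.8 to 7.57 and 6.06 and Ifitm2 rose from 9.07 and 6.27 to 264 and 236.

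Xist, the noncoding RNA of X inactivation, rose from 0.961 and 1.41 FPKM to 6.36 and 4.64 (log2 difference 1.57, SE 0.21, limma adjusted p = 0.000299), although reads of Xist and its antisense partner Tsix cannot be told apart in these unstranded libraries. Rlim, its activator, fell from 56.0 and 52.7 to 13.05 and 12.9. The Y-linked Eif2s3y was at 18.6 and 0.0952 and then 81.5 and 73.4, and Ddx3y at 1.89 and 0.0376 and then 12.5 and 13.8. Both were called, and without 2-cell replicate 2, which is almost without Y-linked transcripts, their log2 differences were 1.998 and 2.29 in place of 4.08 and 3.03. Of the 10 tested genes of X inactivation and the Y chromosome, 4 rose and 1 fell (median 0.66). Without 2-cell replicate 2 there were 3 of each (median 0.0073), and without replicate 1 7 rose (median 1.403). The part of embryo sex in these values was not tested. Of the miR-290 cluster only Mir290 and Mir295 passed the filter, as short entries with unstable FPKM, and Mir290 was listed at 0 in both 2-cell libraries and at 72.1 and 72.5 in blastocysts.

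Most markers of other cells did not pass the filter, and their part in the results was not tested. Of 17 cumulus and granulosa markers 2 passed the filter, Gja1, which rose from 56.5 and 57.6 FPKM to 622 and 678, and Tnfaip6, which fell from 14.3 and 24.0 to 0.541 and 0.343. Amh was listed at 0 in all 4 libraries, and Fshr, Foxl2, Cyp19a1, Has2 and Ptx3 were at 0.223 FPKM or below. The sum over this list was 72.2 and 83.5 FPKM, then 624 and 679, of which Gja1 made up nearly all in blastocysts. Sperm markers passed in 4 of 18 cases, and their sum was 30.0 and 35.4 FPKM and then 10.5 and 16.9. Of these 4, Prm2, a protamine, fell from 8.52 and 17.1 to 1.84 and 3.78, and Ldhc and Pgk2, enzymes of sperm glycolysis, were cleared, from 10.7 and 6.92 to 0.447 and 0.363 and from 4.73 and 3.70 to 0 in each library. Prm3 was switched on, listed at 0 in both 2-cell libraries and at 3.53 and 7.46 in blastocysts. Markers of blood and other somatic cells passed in 7 of 22 cases, with a sum of 69.2 and 106.7 FPKM and then 44.8 and 37.4. Of these 7, 3 rose and 3 fell. Cd68, a macrophage marker, rose from 2.00 and 2.08 to 21.3 and 15.2, Pecam1, an endothelial marker, rose from 1.58 and 3.46 to 9.16 and 9.75, and Des, the muscle filament desmin, was listed at 0 and then at 6.53 and 6.75. Cd74 fell from 23.5 and 58.9 to 2.41 and 1.23, Tubb3 from 28.7 and 30.4 to 1.88 and 1.54 and Hba-a2 from 9.24 and 8.25 to 2.51 and 1.57, and Vim was not called. Ptprc and Hbb-b1 were listed at 0 in all 4 libraries.

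Several gene families held members that moved apart, a set chosen here after the values were seen. Tet3 fell while Tet1 and Tet2 rose, H1foo fell while Hist1h1b rose, and Ldhb fell while Ldha rose from 25.6 and 25.8 FPKM to 178 and 179. Aurkc fell while Aurka rose from 99.2 and 54.1 to 226 and 212 and Aurkb from 30.1 and 12.7 to 41.0 and 43.1. Wee2 was cleared while Wee1 was kept, at 9.996 and 9.20 and then 12.7 and 14.3. Pabpc1l, the embryonic poly(A)-binding protein, was cleared, from 1.29 and 3.34 to 0.211 and 0.0730, and Pabpc1 rose from 113 and 95.3 to 226 and 227. Other families moved together, such as the Tcl1 family above, and how often families part was not counted. Among the cap-binding proteins both the oocyte form Eif4e1b and the general form Eif4e fell, the latter from 260.0 and 203 to 91.8 and 86.6.

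The same interval in embryos from wild-type oocytes served as the reference for what is particular to the Tet3-null transition. In wild-type, 4713 of these genes were called higher (37.8%) and 4719 lower (37.9%). Of the 9645 genes called in Tet3-null embryos, 8604 were called in the same direction in wild-type and 16 in the opposite direction. Of the genes called higher in Tet3-null, 86.1% were also called higher in wild-type, and these were 94.6% of the wild-type set. For lower calls the shares were 92.9% and 87.8%. By class, 1263 genes were cleared in both genotypes (80.8% of the Tet3-null and 86.2% of the wild-type class), 788 were switched on in both (62.6% and 82.7%) and 933 were kept in both (59.6% and 56.9%). Across genes, which are not independent replicates, the log2 differences of the 2 genotypes had a Pearson's r of 0.956.

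The difference between the transitions was tested directly. At an adjusted p under 0.05, 14 genes were called (0.112%), 7 with a more positive difference in Tet3-null embryos (0.0562%) and 7 with a more negative one (0.0562%). At an unadjusted p under 0.05 there were 1807. Kcne3, a potassium channel subunit, was cleared in both genotypes but from unequal levels. It was at 1.97 and 1.02 FPKM and then 0.0362 and 0.101 in Tet3-null embryos and at 17.1 and 13.9 and then 0 in each wild-type blastocyst library, a difference of 2.84 between the log2 differences (adjusted p = 0.0335). Fcgrt, the neonatal Fc receptor, was likewise lower in Tet3-null 2-cell embryos, at 5.28 and 4.403 against 21.0 and 24.4 FPKM, and reached 1.22 and 1.01 against 0.811 and 0.646 in blastocysts (difference 2.31, adjusted p = 0.0376). Ergic3, a protein of transport between endoplasmic reticulum and Golgi, rose in both, from 14.3 and 10.7 to 184 and 186 in Tet3-null and from 49.9 in each to 168 in each in wild-type (difference 2.06, adjusted p = 0.0307).

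Calb2, the calcium-binding protein calretinin, was switched on in Tet3-null embryos, listed at 0 in both 2-cell libraries and at 6.21 and 5.46 FPKM in blastocysts, and was kept in wild-type, at 2.88 and 1.97 and then 1.96 and 2.62 (difference 2.82, adjusted p = 0.0252). Tmsb15b1, a thymosin, fell in both, from 25.6 and 30.4 to 5.74 and 5.65 in Tet3-null and from 49.1 and 53.8 to 2.17 and 1.94 in wild-type (difference 1.99, adjusted p = 0.0402). Defb13, a beta-defensin, was at 8.92 and 6.62 FPKM in Tet3-null 2-cell embryos and listed at 0 in the other 6 libraries (difference -3.12, adjusted p = 0.00464). All 6 genes had 2-cell levels that did not overlap between the genotypes. These levels were part of the test that picked the genes, so their separation adds nothing to it. The share of all genes with such a separation was not counted. The remaining 8 called genes were small RNA entries, such as Snord55, at 245 and 289.9 FPKM in Tet3-null 2-cell embryos and listed at 0 in the other 6 libraries. Defb13, Kcne3, Snord11, Snord55, Mir690, Mir697, Mir742 and Mir1893 passed the filter through the Tet3-null 2-cell libraries alone. Every gene with a more negative difference was among these. Calb2, Snord47 and Mir1894 passed it through the Tet3-null blastocysts alone. Because the filter read only Tet3-null libraries, genes detected only in wild-type embryos could not be called. With the filter over all 8 libraries, 7 genes had a more positive and 12 a more negative difference. How many genes were called changed with the libraries used. The counts were 1255 and 435 without Tet3-null 2-cell replicate 1, 23 and 13 without replicate 2, and between 2 and 8 in each direction without any 1 of the other 6 libraries. The direction of all 6 named differences was the same in each alternative fitted.

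**Figure D5:**
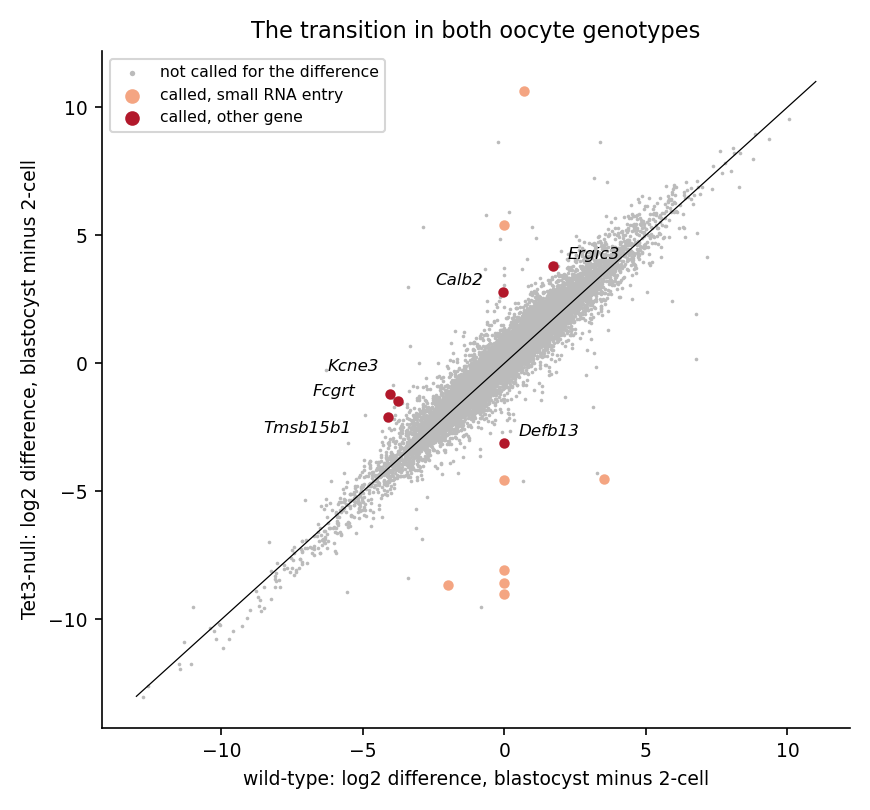
Log2 difference between blastocyst and 2-cell stage in wild-type (x axis) against Tet3-null embryos (y axis) for 12454 genes, with the line of equal differences. The 14 genes called for the difference are coloured, 8 of them small RNA entries, and the other genes cluster along the line (r = 0.956).

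No list held a gene called for the difference. Only 0.112% of all genes were called, so a list of this size could hold none at that share. Medians in wild-type were -4.24 for oocyte-growth genes, -5.01 for 2-cell-stage genes, 2.93 for the trophectoderm epithelium, 2.64 for primitive endoderm genes and 2.12 for ribosomal proteins. The wild-type count was 8 higher and 15 lower for ribosome biogenesis genes (median -0.18), against 20 and 10 in Tet3-null embryos, which was the widest gap in higher calls among the 27 lists. That gap moves with the scaling and with 2-cell replicate 2, as given above. The median over all genes was 0.0062 in wild-type and 0.17 in Tet3-null embryos. The median difference between the genotypes was 0.13, and -0.04 after median-of-ratios scaling, so small differences between them depend on how the libraries are scaled.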

How the data were processed

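The 8 libraries of pooled mouse embryos form 4 groups of 2, and the 4 Tet3-null libraries carry the main comparison. The values are FPKM per gene as deposited by the authors, 1 table per library. Per the submitters' processing notes, TopHat2 2.0.10, Bowtie2 2.1.0, Cufflinks 2.2.0 and build mm9 were used, with the order and annotation not given in the sources used here. How reads from CAST/EiJ alleles map to mm9 was not tested. Read totals are unknown.

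From these values log2(FPKM + 1) was computed and fitted with limma 3.58.1 in R 4.3.3, with 4 group means, an intensity trend and 4 residual degrees of freedom. Tests are two-sided. On simulated data of the same design, with 12454 genes of which 200 were changed, limma recovered 48% of log2 changes of 1 and 88% of changes of 2, and none of 0.5. The changed genes were drawn from the more strongly expressed ones only, so weakly expressed genes were not assessed. In the data 77.4% of genes were called, far more than were changed in the simulation, so these rates do not describe the transition itself. Genes were named by rule: Tet3, Tet1, Tet2, Dppa3, the 15 largest non-overlapping differences in each direction, up to 4 called genes per list, the 10 most abundant kept genes, and up to 8 genes per direction for the genotype difference, without small RNA entries and, outside lists, gene models. The members and lists were chosen with earlier results of these data known. Alternatives covered scaling, pseudocount, filter, fit and each library left out.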

Additional observations from a re-analysis of the deposited data

Results flagged for a closer look

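A direct test of whether the 2-cell to blastocyst difference was unequal in the 2 oocyte genotypes called 7 genes with a more positive and 7 with a more negative value in Tet3-null embryos. Only genes that passed the filter in the Tet3-null libraries were tested. Without Tet3-null 2-cell replicate 1 these counts were 1255 and 435, and without replicate 2 of that group 23 and 13. They were 2 and 7 without wild-type 2-cell replicate 1, 4 and 4 without Tet3-null blastocyst replicate 1, 3 and 4 without its replicate 2, and 4 and 7 without wild-type blastocyst replicate 2. The genes picked out by this test, other than small RNA entries, were Kcne3 with a difference of 2.84, Calb2 with 2.82, Fcgrt with 2.31, Ergic3 with 2.06, Tmsb15b1 with 1.99 and Defb13 with -3.12, each as Tet3-null minus wild-type on the log2 scale. Under the alternatives that could be fitted, limma's adjusted p was above 0.05 in 10 of 15 for Kcne3 (highest 0.301), 7 of 16 for Calb2 (highest 0.206), 10 of 15 for Fcgrt (highest 0.324), 9 of 16 for Ergic3 (highest 0.301), 10 of 16 for Tmsb15b1 (highest 0.325) and 2 of 16 for Defb13 (highest 0.0580).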

How the results depend on the processing

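Of the 141 named genes called in the Tet3-null transition, 139 kept their call and direction in every alternative fitted for them (17, or 16 for Tet3, Xist, Fcgrt, Kcne3, Pgk2 and Prm3, which do not pass the filter of 5 FPKM). The exceptions were Bop1 without Tet3-null blastocyst replicate 1 (adjusted p = 0.0508) and Eif2s3y with the Tet3-null libraries alone (adjusted p = 0.0501), both from limma. With 1 library left out, where the lone library is assumed to vary like the other groups, genes called higher numbered 4588 to 5397, lower 3961 to 4574, switched on 1223 to 1693, raised 3365 to 3891, cleared 1508 to 1676, lowered but retained 2334 to 3066 and kept 1136 to 1667. The counts for the genotype difference ran from 2 to 1255 higher and from 4 to 435 lower. With 5 FPKM as the filter, which tests fewer genes, switched-on genes numbered 487, cleared genes 633 and kept genes 1006. The genotype difference had 4 higher genes after quantile normalization and 4 with no filter, and 12 lower genes with the filter over all 8 libraries. Medians of 3 lists changed sign: ribosome biogenesis to -0.088 after quantile normalization, cumulus and granulosa markers to 0.51 with the 8-library filter, and cell cycle genes to 0.00015 without Tet3-null 2-cell replicate 1. With 1 library left out the median ran from -0.32 to 0.042 for cumulus and granulosa markers (above 0 without Tet3-null 2-cell replicate 2) and from -0.38 to 0.00015 for cell cycle genes. The cause was not tested. Deviations of same-numbered libraries correlated between -0.0843 and 0.0173, so no common deviation was seen. This cannot show whether same-numbered pools shared an origin. With the replicate block there were 5130 higher and 4419 lower genes, and 2 higher and 6 lower genes for the genotype difference. Read depth behind single values is unknown.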

Other observations

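Genes often used as references for normalization mostly moved across the Tet3-null transition, as did 77.4% of all genes. Of 15 tested, 10 rose (66.7%), 2 fell (13.3%) and 2 were kept, with a median of 1.08 beside 0.17 over all genes. Of all genes 41.6% rose, 35.8% fell and 12.6% were kept. Actb, cytoplasmic actin, stood at 611 and 627 FPKM in 2-cell embryos and at 12611 and 12309 in blastocysts (log2 difference 4.33, SE 0.11, limma adjusted p = 1.62e-07). Ppia rose from 695 and 314 to 4436 and 4368, Gapdh from 45.6 and 40.7 to 376 and 368 and Eef1a1 from 337 and 353 to 3449.8 and 3439.8. Tfrc, the transferrin receptor, fell from 70.11 and 49.5 to 6.78 and 5.96. Tbp, the TATA-binding protein, was kept, at 40.9 and 22.5 and 25.4 and 22.8, as was H2afz.

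There were 16 genes called in opposite directions in the 2 genotypes, of which only Mir690, a small RNA entry, was called for the difference itself. Tppp3, a tubulin-binding protein, had a log2 difference of 1.25 in Tet3-null and -1.73 in wild-type embryos (adjusted p of the difference 0.057 by limma). Nucb2, a calcium-binding protein, had 0.70 and -1.43 (adjusted p of the difference 0.0676 by limma). Both were chosen after their values were seen, as the pair with the lowest such p among the other 15 genes.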
